A study of Mus musculus with 108 samples.

Results

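The ERK feedback genes described here are 9 genes that signalling by fibroblast growth factor (FGF) is known to switch on: the phosphatase genes Dusp6 and Dusp4, the Sprouty genes Spry1, Spry2 and Spry4, the Spred genes Spred1 and Spred2, and the transcription factor genes Etv4 and Etv1. They were taken by symbol, as a fixed list of 9 among the 26218 genes measured, and all 9 were found. Mouse germline stem cell-like cells (GSCLCs), which are grown from pluripotent stem cells by way of reconstituted testes, were set beside germline stem cells (GSCs), which are spermatogonial stem cells expanded from testes. Each sample was 1 cell, read by SC3-seq, a method that sequences the 3′ ends of polyadenylated RNA in single cells. The titles assign 30 cells to the line GSCLC1, 24 to GSCLC4, 30 to GSC1 and 24 to GSC2. GSCLC4 came from reconstituted testes held at 34 °C for 3 weeks and GSC2 from separate testes of postnatal day 7, while the labels used here give no such detail for GSCLC1 and GSC1. All 4 lines were of 129/SvJcl x C57BL/6 background, carried the AcrAct_EGFP reporter and grew in the same medium with GDNF and basic FGF at 10 ng/ml each, EGF (20 ng, with no volume stated) and LIF. No sample lacked a growth factor, so the data show these genes under constant stimulation and hold no unstimulated control.

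FGF, GDNF and EGF bind receptors that activate Ras, and Ras starts the kinase chain Raf, MEK and ERK. Active ERK raises transcription of its own inhibitors: dual-specificity phosphatases remove the activating phosphates from ERK, while Sprouty and Spred proteins restrain the pathway at or above Raf. Etv4, Etv1 and their relative Etv5 are ETS transcription factors of the PEA3 group that FGF and ERK induce, and in spermatogonial stem cells GDNF and FGF are the signals that maintain self-renewal.

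Expression is given in RPM, a read count scaled to the same total over genes in every cell. Cells of 1 line share a culture and are not replicates, so lines were the unit of comparison, with 2 lines against 2. The p-values weigh a difference against a spread between lines of a type that limma estimates partly from other genes of similar level. The SE of a gene can therefore be larger or smaller than the spread of its own lines. Estimated depth was 2.00 to 6.04 M reads per cell (M, mega), with line medians of 3.19 and 3.26 M in GSCLC1 and GSCLC4 and 3.71 and 4.30 M in GSC1 and GSC2. Of 9 markers of undifferentiated spermatogonia, all averaged at least 1 RPM in every line, and the list summed to line means of 982 to 1099 RPM. In GSC1, 1 cell was unlike the others: it had 5748 detected genes, against 7305 or more in the rest of the line. Its fibroblast marker list summed to 27131 RPM and its undifferentiated spermatogonia list to 2.31 RPM. Serial numbers in the titles place the GSC1 cells in a run from 129 to 150 (17 cells) and a run from 65 to 80 (13 cells). No cells had identical columns.

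Dusp6 and Spred1 were detected in every cell of the 4 lines, and Etv1 in 4 cells. These genes mark the ends of the range, so the 250 bases before their annotated starts are shown, from the RefSeq annotation of GRCm38.p6 and in the direction of transcription. Capitals mark CGGAA on either strand (TTCCG on the other), a form of the GGAA core that ETS factors bind.

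Dusp6, chr10:99262981-99263230, plus strand: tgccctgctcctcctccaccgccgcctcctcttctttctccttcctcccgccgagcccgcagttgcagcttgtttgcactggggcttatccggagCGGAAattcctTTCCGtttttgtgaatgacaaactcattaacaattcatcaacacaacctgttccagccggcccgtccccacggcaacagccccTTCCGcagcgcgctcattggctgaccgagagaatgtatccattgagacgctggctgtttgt
Spred1, chr2:117120821-117121070, plus strand: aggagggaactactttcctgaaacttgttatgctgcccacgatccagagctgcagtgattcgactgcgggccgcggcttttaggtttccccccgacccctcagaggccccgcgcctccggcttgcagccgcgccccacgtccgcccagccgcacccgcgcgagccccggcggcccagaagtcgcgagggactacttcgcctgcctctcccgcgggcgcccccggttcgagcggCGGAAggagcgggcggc
Etv1, chr12:38779832-38780081, plus strand: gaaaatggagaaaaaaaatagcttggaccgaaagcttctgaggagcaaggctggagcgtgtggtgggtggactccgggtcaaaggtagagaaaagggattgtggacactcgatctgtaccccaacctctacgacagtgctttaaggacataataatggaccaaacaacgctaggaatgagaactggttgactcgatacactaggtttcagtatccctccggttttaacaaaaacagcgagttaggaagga

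The Dusp6 window held 3 matches, of which the nearest begins 61 bases before the start, the Spred1 window held 1 and the Etv1 window none. RefSeq windows were matched for 6 of the 9 members, which leaves Dusp4, Spry4 and Etv4. Of the matched genes not shown, Spred2 held 2 matches and Spry1 and Spry2 none, and a further annotated start of Etv1 held none. CGGAA was in 25.2% of all 32851 windows of this length. It was searched after the longer CCGGAA, which contains it and is in 12.0% of windows, had given no match in any of the 6 matched members. G and C made up 56.4% of the Dusp6 window, 70.8% of the Spred1 window and 46.4% of the Etv1 window shown, against a median of 52.4% over all windows. The cAMP response element TGACGTCA (1.55% of windows) and the AP-1 site TGACTCA (4.46%) had no match in these 6 genes. A match is a string of letters here, not a measured site.

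The phosphatases behaved differently from each other. Dusp6, a cytoplasmic phosphatase that acts on ERK (chromosome 10, 99263231 to 99267489), ranged from 0.428 to 397 RPM in GSCLC1, with a median of 83.7 RPM. It ranged from 1.68 to 413 RPM in GSCLC4 (median 84.6), from 0.659 to 438 RPM in GSC1 (median 84.1 in the run from 129 to 150 and 128.8 in the run from 65 to 80) and from 4.41 to 422 RPM in GSC2 (median 119.4). The ranges over cells overlapped almost entirely, and at least 5 RPM was reached in 86.7% of cells in GSCLC1, 95.8% in GSCLC4, 86.7% in GSC1 and 95.8% in GSC2. Line means were 108.5 and 102 RPM in GSCLC1 and GSCLC4 and 128 and 128 RPM in GSC1 and GSC2, so both GSCLC means lay below both GSC means, with an interval of the difference that included 0 (log2 fold change of GSCLC over GSC -0.28 ± 0.23 SE, 95% interval -0.78 to 0.22, limma adjusted p = 0.780). The RefSeq annotation places a long non-coding RNA gene, Gm34921, across the 3′ end of Dusp6 (chromosome 10, 99266864 to 99270899). No source used here states whether counting used the strand, so reads of the overlap cannot be assigned to either gene.

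Dusp4, a nuclear phosphatase of ERK and other MAP kinases (chromosome 8, 34807610 to 34819894), was found in part of the cells of every line. It ranged from 0 to 212 RPM in GSCLC1 (median 1.56), from 0 to 43.6 RPM in GSCLC4 (median 0), from 0 to 180.4 RPM in GSC1 (median 0.258) and from 0 to 52.8 RPM in GSC2 (median 0). Thus most cells of every line were below 5 RPM, and a minority held nearly all of the reads. At least 5 RPM was reached in 14 of 30 GSCLC1 cells (46.7%, exact 95% interval 28.3% to 65.7%), 4 of 24 GSCLC4 cells (16.7%, 4.74% to 37.4%), 9 of 30 GSC1 cells (30.0%, 14.7% to 49.4%) and 3 of 24 GSC2 cells (12.5%, 2.66% to 32.4%). These intervals cover counting error only. For scale, 16 genes that define Sertoli, Leydig, peritubular, blood or endothelial cells had a median share at this level of 0 to 6.25% by line and a highest share of 20.0% to 50.0%.

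Dusp4 differed more between lines of a type than between types. Its line means were 44.7 and 4.76 RPM in GSCLC1 and GSCLC4 and 25.3 and 3.62 RPM in GSC1 and GSC2. It was 7.92 times as high in GSCLC1 as in GSCLC4 and 5.70 times as high in GSC1 as in GSC2, on the scale of mean RPM + 1. These are 1 line against 1, with no test. Of the 10526 tested genes, 5.23% were at least 2-fold higher and 9.35% at least 2-fold lower in GSCLC1 than in GSCLC4. In GSC1 over GSC2 these shares were 7.33% and 7.23%, and 1.01% of genes were higher in both pairs. Of the 8 tested members, only Dusp4 reached 2-fold in either pair. Dusp4 met the filter of at least 5 RPM in at least 2 lines only through GSCLC1 and GSC1, the lines where it was high. Its difference between lines of a type is therefore tied to its being tested at all. In GSC1 its mean was 26.2 RPM in the run from 129 to 150 and 24.1 RPM in the run from 65 to 80. The GSC1 cell that stood apart held 103 RPM, the 4th highest value of the line, and the GSC1 mean was 22.6 RPM without it. The 3 highest cells carried 45.6% of all Dusp4 signal in GSCLC1, 93.3% in GSCLC4, 61.9% in GSC1 and 95.9% in GSC2. Between the types the log2 fold change was 0.56 ± 0.95 (SE, 95% interval -1.51 to 2.63, limma adjusted p = 0.924), and it was -0.70 without GSC2.

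**Figure D1:**
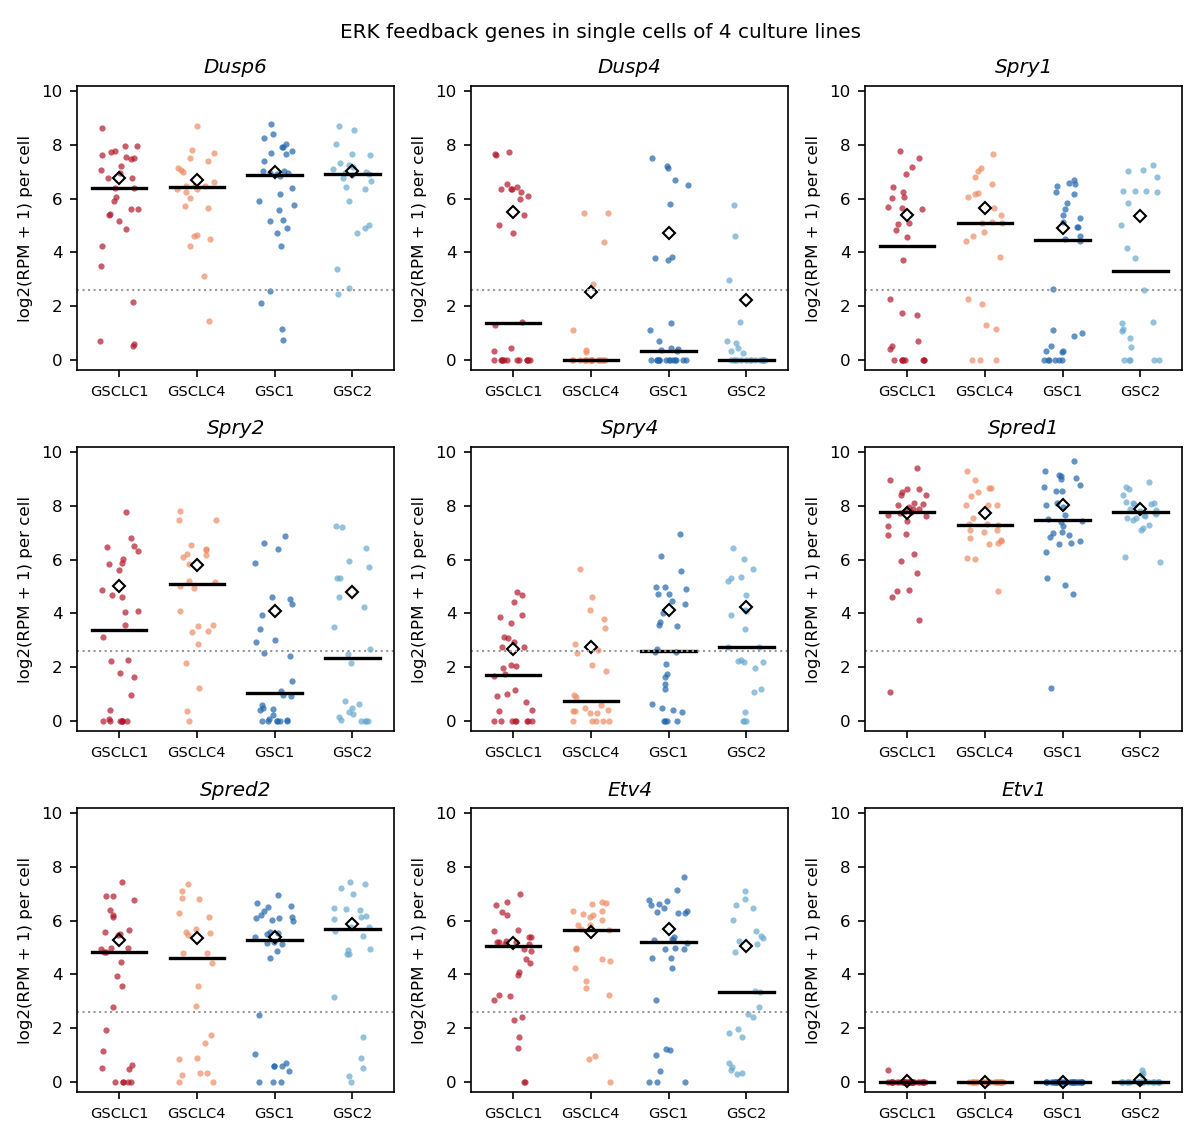
Expression of the 9 members in single cells, as log2(RPM + 1), in GSCLC1, GSCLC4, GSC1 and GSC2; each point is 1 cell, bars are medians, diamonds are means and the dotted line is 5 RPM. Dusp6 and Spred1 lie above the dotted line in nearly all cells, Etv1 lies at or near 0, and the other members split into cells above and cells near 0.

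The Sprouty genes encode membrane-associated inhibitors of receptor tyrosine kinase signalling, and their differences between the types had opposite signs, none of them past the adjusted threshold. Spry4 (chromosome 18, 38586247 to 38601347) ranged from 0 to 26.5 RPM in GSCLC1 (median 2.26) and from 0 to 49.9 RPM in GSCLC4 (median 0.653). In GSC1 it ranged from 0 to 123 RPM (median 5.13) and in GSC2 from 0 to 84.7 RPM (median 5.72). The highest cells were in the GSC lines, while cells without Spry4 were present in all 4 lines. Line means were 5.41 and 5.78 RPM in GSCLC1 and GSCLC4 and 16.6 and 17.7 RPM in GSC1 and GSC2, so that lines of a type nearly coincided. The log2 fold change was -1.46 ± 0.58 (SE, 95% interval -2.72 to -0.20), with an unadjusted p of 0.0269 and a limma adjusted p = 0.512. The difference therefore did not pass the threshold of 0.05 over all tested genes, and 4.07% of these had a change at least as large in either direction. Shares of cells with at least 5 RPM were 36.7% and 29.2% in GSCLC1 and GSCLC4 and 50.0% and 54.2% in GSC1 and GSC2. After every cell was thinned to the depth of the shallowest, Spry4 was detected in 66.7% and 58.3% of GSCLC1 and GSCLC4 cells and in 83.3% and 83.3% of GSC1 and GSC2 cells, so the order of the types held at equal depth.

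Other measures moved with Spry4 between the types. The fibroblast and feeder marker list, with 7 of 7 genes measured, summed to line means of 123 and 282 RPM in GSCLC1 and GSCLC4 and 1692 and 439.6 RPM in GSC1 and GSC2. Without the cell that stood apart the GSC1 mean was 815 RPM. Over cells the list ranged from 8.91 to 332 RPM in GSCLC1, 65.4 to 619 RPM in GSCLC4, 153.2 to 27131 RPM in GSC1 and 72.99 to 1434 RPM in GSC2. Of its 7 genes, Col1a2 was at 0 in GSCLC1 and GSC2, Col3a1 was at 0 in GSCLC4 and GSC2, and none was at 0 in GSC1. In the GSC1 run from 65 to 80 Col1a2 was at 0 as well. List genes averaging below 1 RPM numbered 3 in GSCLC1, 2 in GSCLC4, 2 in GSC2 and 0 in GSC1, or 2 in GSC1 without the cell that stood apart. The part of the fibroblast and feeder signal in the Spry4 difference was not tested. Across the cells of a line Spry4 had Spearman's rho with this sum of -0.08 in GSCLC1, -0.22 in GSCLC4, 0.03 in GSC1 and -0.11 in GSC2. The GSC1 cell with the high fibroblast sum had 0 RPM of Spry4, and without it the log2 fold change was -1.48. In the GSC1 runs from 129 to 150 and from 65 to 80 the mean of Spry4 was 13.3 and 20.8 RPM, each above both GSCLC means. The 3 highest cells carried 55.7% and 74.2% of the signal in these runs, and the medians were 10.5 and 4.88 RPM. At least 5 RPM was reached in 58.8% and 38.5% of their cells, the latter near the 36.7% of GSCLC1.

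Spry2 (chromosome 14, 105891947 to 105896819) had the opposite order. It ranged from 0 to 217 RPM in GSCLC1 (median 9.33), from 0 to 225 RPM in GSCLC4 (median 33.4), from 0 to 115.9 RPM in GSC1 (median 1.03) and from 0 to 152.6 RPM in GSC2 (median 4.03). Line means were 31.6 and 54.5 RPM in GSCLC1 and GSCLC4 and 15.8 and 26.9 RPM in GSC1 and GSC2. The lines did not overlap, but GSCLC1 and GSC2 were close. The log2 fold change was 0.97 ± 0.44 (SE, 95% interval 0.02 to 1.92), with an unadjusted p of 0.0453 and a limma adjusted p = 0.558. It was 0.59 without GSCLC4 and 0.61 without GSC1, and 1.36 without GSCLC1. The share of cells at or above 5 RPM was 53.3% in GSCLC1 and 83.3% in GSCLC4, and it was 36.7% in GSC1 and 45.8% in GSC2. Of the 90 cells with Spry2, 22.2% had a value that was not a whole number of reads, which leaves its level less certain than that of Dusp6, Dusp4, Etv4 or Etv1, all of whose values were whole.

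Spry1 (chromosome 3, 37639947 to 37644599) ranged from 0 to 217 RPM in GSCLC1 (median 17.7), from 0 to 200.3 RPM in GSCLC4 (median 33.1), from 0 to 103 RPM in GSC1 (median 21.1) and from 0 to 152.8 RPM in GSC2 (median 8.86). Line means were 41.5 and 48.7 RPM in GSCLC1 and GSCLC4 and 29.2 and 40.2 RPM in GSC1 and GSC2. The neighbouring lines GSCLC1 and GSC2 differed by little, and the log2 fold change was 0.38 ± 0.35 (SE, 95% interval -0.39 to 1.15, limma adjusted p = 0.822). By share of cells at or above 5 RPM the types overlapped, with 53.3% and 70.8% in GSCLC1 and GSCLC4 and 56.7% and 50.0% in GSC1 and GSC2.

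**Figure D2:**
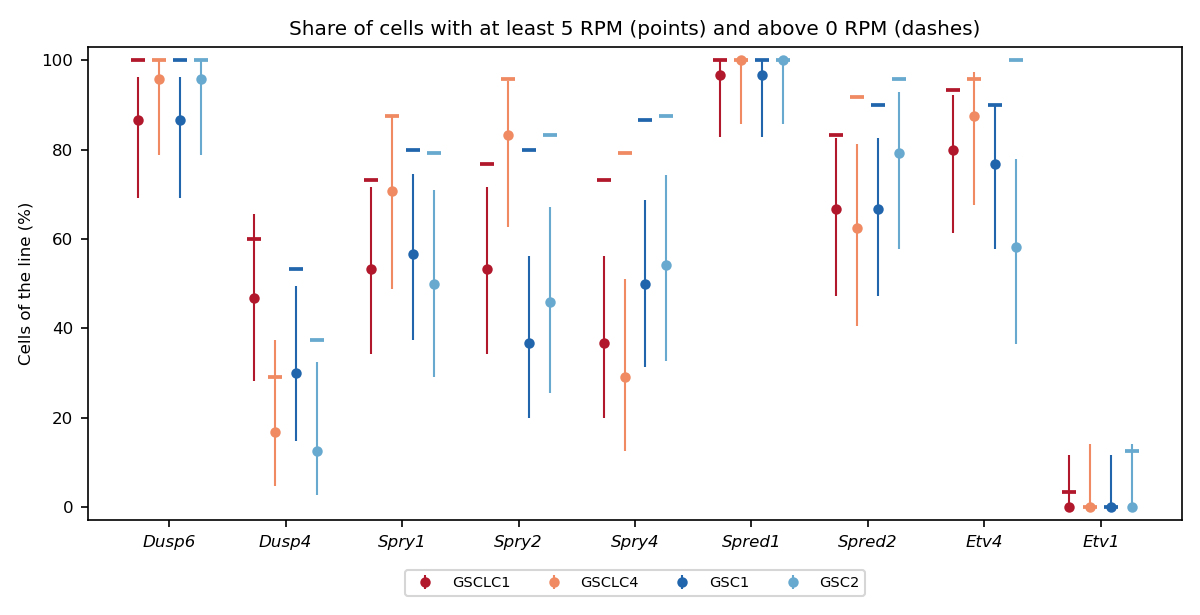
Share of the cells of each line, in percent, with at least 5 RPM (points, with exact 95% binomial intervals) and above 0 RPM (dashes) for each member. Dusp6 and Spred1 lie at 86.7% or higher in every line, Dusp4 at 46.7% or lower, and Etv1 at 0.

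Spred1 and Spred2 encode Sprouty-related proteins, of which Spred1 binds the Ras GTPase activator neurofibromin. Spred1 (chromosome 2, 117121071 to 117182279) ranged from 1.08 to 692 RPM in GSCLC1 (median 217), from 27.5 to 639 RPM in GSCLC4 (median 157.2), from 1.32 to 829 RPM in GSC1 (median 176.9) and from 59.7 to 477 RPM in GSC2 (median 220.1). All but 1 GSCLC1 cell and 1 GSC1 cell reached 5 RPM, and the GSC1 exception was the cell that stood apart. Line means were 215 and 215 RPM in GSCLC1 and GSCLC4 and 262 and 235 RPM in GSC1 and GSC2 (log2 fold change -0.21 ± 0.19 SE, 95% interval -0.62 to 0.20, limma adjusted p = 0.817). Of all values of Spred1, 12.0% were not whole reads. Spred1 varied least from cell to cell in GSC2, where its coefficient of variation was 42.7%, against 73.9% in GSCLC1, 71.98% in GSCLC4 and 81.1% in GSC1.

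Spred2 (chromosome 11, 19924442 to 20024026) ranged from 0 to 171.1 RPM in GSCLC1 (median 27.5), from 0 to 166.2 RPM in GSCLC4 (median 23.5), from 0 to 123 RPM in GSC1 (median 38.4) and from 0 to 174 RPM in GSC2 (median 50.7). Its line means were 37.7 and 40.0 RPM in GSCLC1 and GSCLC4 and 41.1 and 58.0 RPM in GSC1 and GSC2, with the first 3 lines close together (log2 fold change -0.32 ± 0.34 SE, 95% interval -1.06 to 0.42, limma adjusted p = 0.845). The GSC1 mean combined unlike runs, with 27.1 RPM in the run from 129 to 150, below both GSCLC lines, and 59.4 RPM in the run from 65 to 80. With GSC1 taken from the later run alone the log2 fold change was -0.03, and from the earlier run alone -0.58.

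Of the transcription factors, Etv4 was detected in most cells and Etv1 in very few. Etv4 (chromosome 11, 101769747 to 101785310) ranged from 0 to 126 RPM in GSCLC1 (median 31.9), from 0 to 102 RPM in GSCLC4 (median 49.8), from 0 to 198 RPM in GSC1 (median 36.2) and from 0.229 to 136.6 RPM in GSC2 (median 9.27). At least 5 RPM was reached in 24 of 30 cells in GSCLC1, 87.5% in GSCLC4, 76.7% in GSC1 and 58.3% in GSC2. GSC2 was low by median and by share, yet its mean of 31.97 RPM was near the 34.5 RPM of GSCLC1, and the 3 highest GSC2 cells held 44.6% of its signal. GSCLC4 and GSC1 averaged 46.3 and 50.0 RPM. The log2 fold change of the line means was -0.00 ± 0.37 (SE, 95% interval -0.80 to 0.80, limma adjusted p = 1.00), and with line means of log2(RPM + 1) over cells it was 0.52. Etv1 (chromosome 12, 38780082 to 38870483) was above 0 in 1 GSCLC1 cell, 0 GSCLC4 cells, 0 GSC1 cells and 3 GSC2 cells, and never exceeded 0.362 RPM. A count of 0 allows a share of up to 14.2% of GSCLC4 cells and 11.6% of GSC1 cells by the exact 95% interval. It was too low to test. Their relative Etv5, which is needed for self-renewal of mouse spermatogonial stem cells, averaged 319 and 296 RPM in GSCLC1 and GSCLC4 and 277 and 279 RPM in GSC1 and GSC2 (log2 fold change 0.14 ± 0.18 SE, limma adjusted p = 0.877).

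Over all 8 tested members, 0 passed the limma test at an adjusted p under 0.05, while 8 of the 10526 tested genes did (0.0760%). At an unadjusted p under 0.05 there were 2 members, Spry4 and Spry2, against 8.83% of all tested genes. Line means of the types did not overlap for 6 members, against 39.3% of all tested genes. In the GSCLC lines Dusp6, Spry4, Spred1 and Spred2 were the lower ones and Spry1 and Spry2 the higher ones. The median log2 fold change of the 8 members was -0.10, and that of all tested genes was 0.039. With 2 lines per type the intervals are wide: they include a 2-fold difference for Dusp4, Spry1, Spry2, Spry4 and Spred2, so the missing calls do not show that the types express these genes alike.

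**Figure D3:**
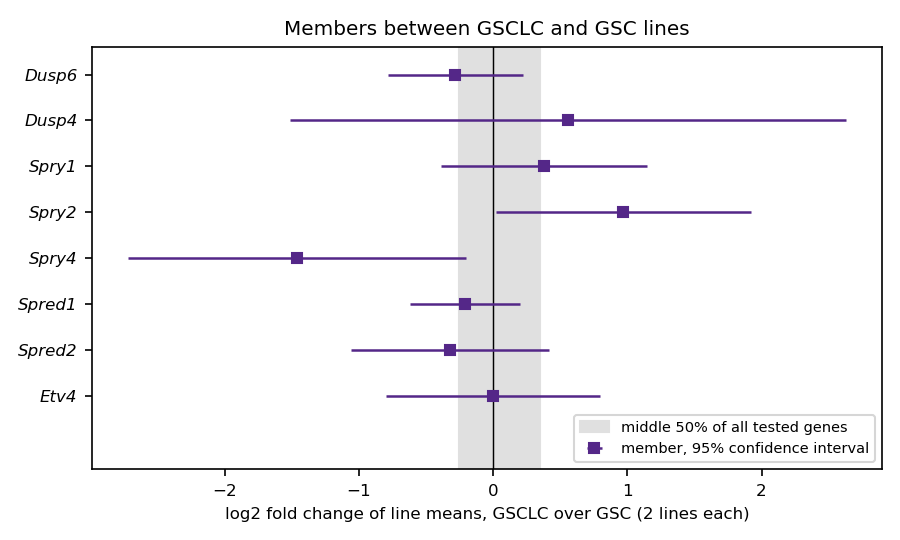
Log2 fold change of line means, GSCLC over GSC (2 lines each), for the 8 tested members with 95% confidence intervals from limma; the grey band holds the middle 50% of all 10526 tested genes, from -0.25 to 0.35. Spry4 at -1.46 and Spry2 at 0.97 lie on opposite sides, and the other members lie between -0.32 and 0.56.

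Each cell expressed several members. A cell had a median of 5 members at or above 5 RPM in GSCLC1, 6 in GSCLC4, 5 in GSC1 and 5 in GSC2, and the lowest count in any cell was 2. At least 7 members were reached in 7 of 30 GSCLC1, 7 of 24 GSCLC4, 4 of 30 GSC1 and 3 of 24 GSC2 cells. The summed RPM of the members had medians of 533 and 488 in GSCLC1 and GSCLC4 and 541 and 505 in GSC1 and GSC2, with cells from 120.4 to 1521 RPM. Single cells thus differed widely in the sum. A median over many cells varies less than single cells do, so these values do not compare the spread of cells with that of lines.

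Members were only weakly correlated with each other across the cells of a line. Etv1 was at 0 in every cell of GSCLC4 and GSC1, which left 28 member pairs there, against 36 in GSCLC1 and GSC2. The median Spearman's rho over member pairs was 0.096 in GSCLC1, 0.149 in GSCLC4, 0.076 in GSC1 and 0.100 in GSC2. Over the 7 members detected in at least 50% of the cells of every line it was 0.109 in GSCLC1, 0.270 in GSCLC4, 0.081 in GSC1 and 0.096 in GSC2. In GSC1 the median over all members was 0.133 without the cell that stood apart, 0.129 in the run from 129 to 150 and 0.003 in the run from 65 to 80. Over all pairs of 7890 genes detected in at least 50% of the cells of every line the median was 0.008 in GSCLC1, 0.016 in GSCLC4, 0.031 in GSC1 and 0.010 in GSC2, and the middle 90% of pairs reached from about -0.30 to 0.32 in GSCLC1. Cells of a line share culture, preparation and depth, and sparse values weaken a rank correlation, so these are descriptions with no test. The medians were 0.011 in GSCLC1 and 0.039 in GSC2 once detected genes and depth were held constant, and 0.145 in GSCLC4 and 0.082 in GSC1.

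Among single pairs, Dusp6 and Spry4 were positively correlated in every line, with rho of 0.10 in GSCLC1, 0.51 in GSCLC4, 0.27 in GSC1 and 0.34 in GSC2. Their mean rho of 0.30, the highest of the member pairs with a value in all 4 lines, placed Spry4 52nd of 7889 genes by likeness to Dusp6. Etv4 ranked 728th, Spry1 838th, Spred1 1817th, Spred2 2297th and Spry2 2465th. In all lines together, 45.9% of the 98 cells with at least 5 RPM of Dusp6 also had that much Spry4, against 1 of the other 10 cells. Dusp6 was also positive in all 4 lines with Spry1 (mean rho 0.17) and Etv4 (0.18), although in the GSC1 runs from 129 to 150 and from 65 to 80 rho was 0.25 and -0.38 with Spry1 and 0.56 and -0.07 with Etv4. With Spry4 it was 0.24 and 0.43 in these runs. For comparison, 12.9% of the 7889 genes were positive with Dusp6 in all 4 lines. Dusp6 and Spred1 differed by line, with rho of -0.03 in GSCLC1, 0.57 in GSCLC4, 0.42 in GSC1 and -0.48 in GSC2, and no common direction. Dusp4 and Etv4 had rho of 0.01 in GSCLC1, -0.31 in GSCLC4, -0.35 in GSC1 and -0.29 in GSC2. In GSC1 that relation was -0.71 in the run from 129 to 150 and 0.03 in the run from 65 to 80, so it rested on the later run.

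**Figure D4:**
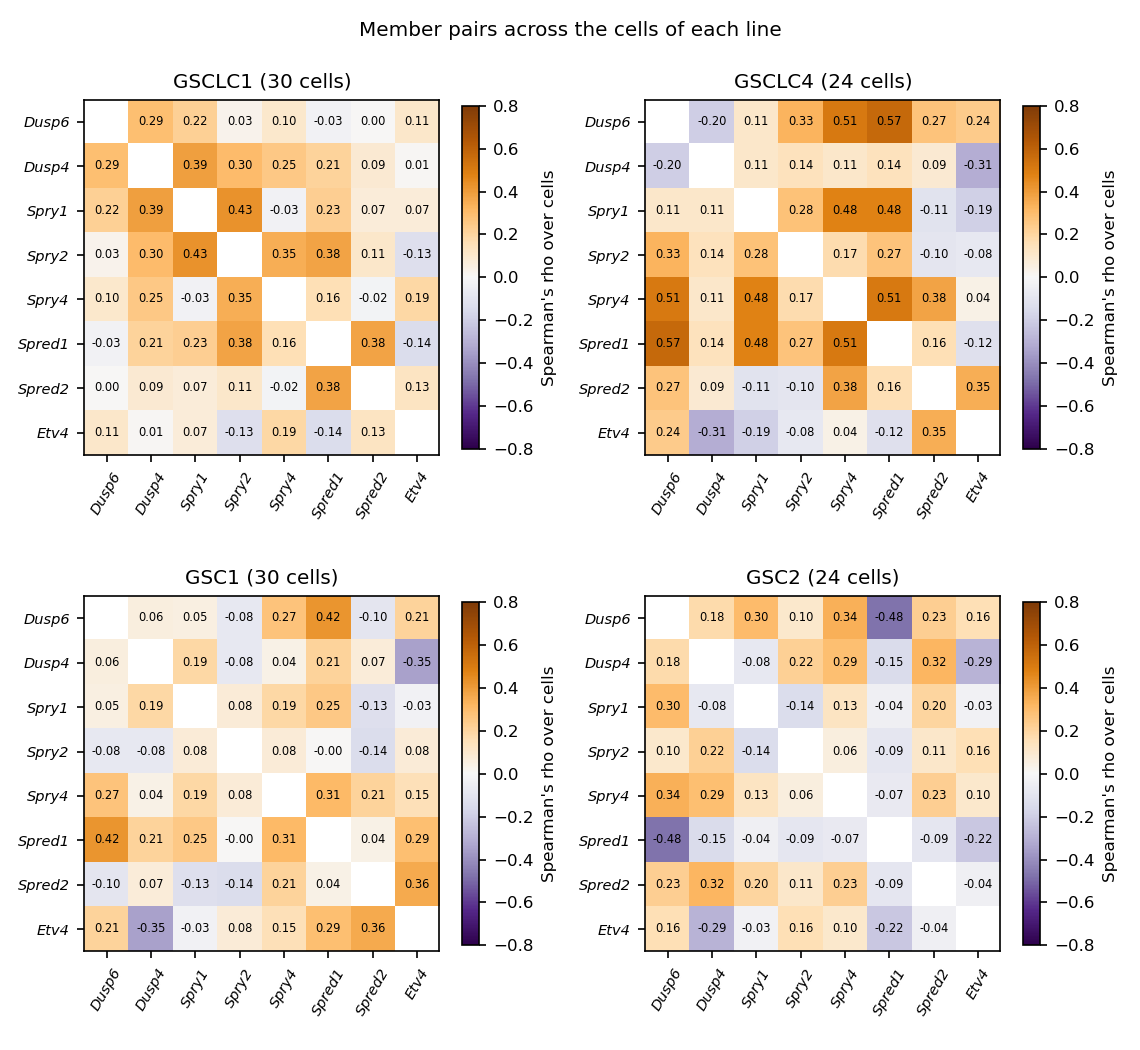
Spearman's rho of each pair of 8 members over the cells of GSCLC1, GSCLC4, GSC1 and GSC2; Etv1 is left out because it was at 0 in nearly all cells. Most values lie between -0.3 and 0.4, Dusp6 with Spry4 is positive in all 4 panels, and Dusp6 with Spred1 changes sign.

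**Figure D5:**
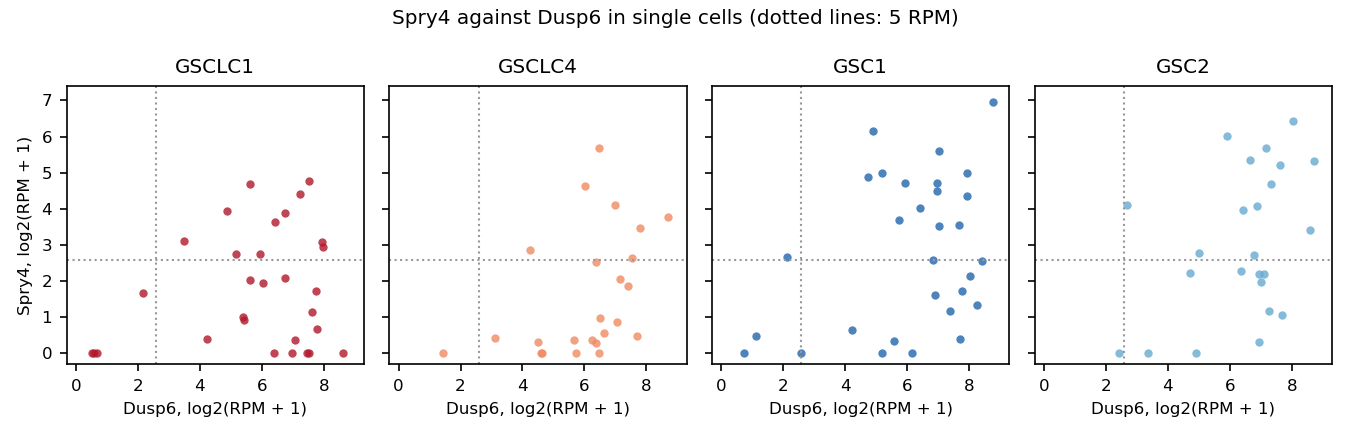
Spry4 against Dusp6 in single cells, both as log2(RPM + 1), by line; each point is 1 cell and dotted lines mark 5 RPM. Cells with high Spry4 lie almost all to the right of the Dusp6 line, with 1 exception, and 53 cells with at least 5 RPM of Dusp6 lie below 5 RPM of Spry4.

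Among the 7889 genes detected in at least 50% of the cells of every line, the 5 whose levels followed Dusp6 most closely over cells were LOC100861874, D19Ertd386e, Fry, Armc10 and Phlda1. LOC100861874 stood far from the rest, with rho of 0.87 in GSCLC1, 0.78 in GSCLC4, 0.81 in GSC1 and 0.80 in GSC2. The others had a mean rho of 0.38 or 0.39. LOC100861874 averaged 0.946 and 1.09 RPM in GSCLC1 and GSCLC4 and 1.33 and 4.32 RPM in GSC1 and GSC2. The RefSeq table used here does not annotate this identifier, so its position and its relation to Dusp6 were not determined. Phlda1, an ERK-responsive gene, had a mean rho of 0.38 and was positive in all 4 lines. Other ERK-responsive genes outside the member list ran from a mean rho of 0.27 for Epha2 to -0.16 for Ier3, which ranked 7624th. Receptors differed in their relation to Dusp6. Gfra1, the GDNF-binding co-receptor, ranked 15th with rho of 0.41 in GSCLC1, 0.21 in GSCLC4, 0.40 in GSC1 and 0.39 in GSC2, whereas Fgfr1 ranked 7831st with -0.01, -0.13, -0.30 and -0.42 in the same lines. Ret, the signalling partner of Gfra1, had a mean rho of 0.20.

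Of 48 mean rhos of a member with a cell measure, 3 lay outside the middle 90% of genes. By the definition of this range, that share is no larger than the share among all genes, so the 3 are descriptions only. The sum of the members followed the number of detected genes, with rho of 0.45 in GSCLC1, 0.09 in GSCLC4, 0.51 in GSC1 and 0.16 in GSC2. Its mean rho of 0.30 lay above the middle 90% of genes. Each of the 8 expressed members had a mean rho with detected genes above the median gene, at 0.09. Dusp6 was positively related to the number of detected genes in every line, with rho of 0.36 in GSCLC1, 0.20 in GSCLC4, 0.26 in GSC1 and 0.35 in GSC2, where the middle 90% of genes had a mean rho of -0.09 to 0.26. Spry1 was negatively related to spike-in RPM, which is high in cells of low RNA content, with rho of -0.54, -0.39, -0.27 and -0.23 in the same order of lines (middle 90% of genes by mean rho, -0.23 to 0.12). The mean rho of Spred1 with the summed S phase genes was -0.23 (middle 90% of genes by mean rho, -0.18 to 0.25). By line it was -0.35 in GSCLC1, -0.24 in GSC1 and -0.34 in GSC2, with no relation in GSCLC4 (-0.00). None of the 8 expressed members had a mean rho outside the middle 90% of genes for the summed G2 and M phase genes. The part of RNA content and cell cycle in the differences between lines was not tested.

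The rest of the pathway was described by lists of its parts, and 0 genes passed the limma test in any of the 7 lists. For scale, 53.8% of all 10526 tested genes had a positive log2 fold change of GSCLC over GSC. Of 13 ligand genes 3 were tested, with 0 positive fold changes. Egf averaged 4.43 and 0.566 RPM in GSCLC1 and GSCLC4 and 11.5 and 8.05 RPM in GSC1 and GSC2 (log2 fold change -1.86 ± 0.85 SE, limma adjusted p = 0.560), and Hbegf, an EGF receptor ligand, was at -0.30 on the log2 scale (limma adjusted p = 0.942). Of 15 receptors and co-receptors 9 were tested and 6 were positive. Fgfr1 averaged 76.5 and 93.9 RPM in GSCLC1 and GSCLC4 and 56.5 and 72.3 RPM in GSC1 and GSC2 (log2 fold change 0.40 ± 0.28 SE, limma adjusted p = 0.731). Fgfr3 and Egfr were too low to test, with at most 7.24 and 3.46 RPM in any line. Gfra1 and Ret had log2 fold changes of 0.24 and 0.33, and Fgfrl1 and Erbb3 of -1.11 and -0.99 (limma adjusted p from 0.689 to 0.769 for these 4).

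Inside the cell, 11 adaptors and exchange factors were tested, of which 3 were positive, against 53.8% of all tested genes. Line means lay wholly below the GSC lines for 4 and wholly above them for 0, while those of 39.3% of all tested genes did not overlap. The Ras exchange factor Sos2 had 15.0 and 6.68 RPM in GSCLC1 and GSCLC4 and 24.9 and 25.3 RPM in GSC1 and GSC2 (log2 fold change -1.24 ± 0.53 SE, limma adjusted p = 0.547), and Sos1 was at -0.60 on the log2 scale (limma adjusted p = 0.755). Of 12 tested genes from Ras to ERK, 5 were positive. Mapk3, which encodes ERK1, was at -0.39 on the log2 scale (limma adjusted p = 0.824). The scaffold Ksr1 had 18.8 and 30.3 RPM in GSCLC1 and GSCLC4 and 5.65 and 9.86 RPM in GSC1 and GSC2 (log2 fold change 1.55 ± 0.55 SE, limma adjusted p = 0.476).

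Of the 5 tested Ras GTPase activators 3 were positive, with log2 fold changes of 0.49 for Rasa2 and 0.48 for Rasal2 (limma adjusted p = 0.621 and 0.682). Among 7 tested feedback inhibitors outside the member list 2 were positive, with a median of -0.32. They included Lrig1 at 1.17 and Dusp2 at -0.63 on the log2 scale (limma adjusted p = 0.601 and 0.836). Of 10 tested ERK-responsive genes 4 were positive, with a median of -0.42; 4 lay wholly below and 2 wholly above the GSC lines, where 39.3% of all tested genes did not overlap. Ccnd1, the cyclin D1 gene, had 95.3 and 66.2 RPM in GSCLC1 and GSCLC4 and 141.1 and 121.2 RPM in GSC1 and GSC2 (log2 fold change -0.71 ± 0.26 SE, limma adjusted p = 0.495), while Myc was at 0.70 on the log2 scale (limma adjusted p = 0.682). Fold changes of both signs were present in each list but the ligands.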

How the data were processed

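The authors deposited 1 table of signal in RPM for 26218 genes and 92 synthetic spike-in RNAs in single cells of 4 lines. Per the submitters' processing notes, the tools were TopHat 1.4.1, Cufflinks 2.2.0 and cutadapt 1.3, with mm10 as build. The sources used here do not say in which order they ran, how multi-mapping reads were counted or whether strand was used. The deposited signal of all genes has nearly the same total in every cell, with spike-ins on top. The most frequent value above 0 in a cell was taken as 1 read, which left 85.6% to 92.4% of the values above 0 in a cell whole (tolerance 0.05 read), too few for a count model. Depth was 2.00 to 6.04 M reads per cell, and more reads give a more precise value for low genes.

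Line means over cells were compared as log2(mean RPM + 1), a scale that understates changes of low genes, for 10526 genes with at least 5 RPM in at least 2 of 4 lines. They were fitted in limma 3.58.1 (R 4.3.3) with a mean-variance trend and Benjamini-Hochberg adjustment over all tested genes, at a threshold of 0.05. The procedure was checked on simulated data with larger shifts than any member had with all 4 lines. That check does not cover changes of the members' size. Correlations (scipy 1.17.1) were Spearman's within each line. Intervals of shares are Clopper-Pearson at 95%. Positions and promoter windows come from RefSeq on GRCm38.p6 (mm10), joined through Entrez identifiers. The members and lists were chosen with earlier results of these data known. Named were all members, the 2 largest fold changes of each list, Etv5, Fgfr1, Fgfr3, Ret, Gfra1, Egfr and Mapk3, and the 5 genes most like Dusp6 or the members' mean rank; some genes that this rule names are not reported here. Alternatives covered pseudocount, filter, summary over cells, scaling, variance model, left-out cells and lines.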

Additional observations from a re-analysis of the deposited data

How the results depend on the processing

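In each of the 15 alternative fits 0 members passed the threshold, with limma adjusted p from 0.304 to 1.00. The number of genes past it, 8 as reported, was 3 with a pseudocount of 0.1 RPM, 14 with 10 RPM, 0 without a filter (1388 at an unadjusted p under 0.05), 23 with a filter of 20 RPM, 22 with means of log2 values, 3 with trimmed means, 3 after rescaling, 0 without the variance trend (871 unadjusted), 2 and 4 with the later or the earlier GSC1 run alone, and 3 to 19 with a line left out (the lone line is then assumed to vary like the others). The members' median log2 fold change, -0.104, was 0.113 with means of log2 values and 0.063 with the later GSC1 run, and between -0.282 and -0.128 with a line left out. Spry4 was negative in its 14 alternatives (at 20 RPM it was not tested) and Spry2 positive in all 15, at -1.62 to -0.80 and 0.59 to 1.48. Dusp4, at 0.56, was -0.70 without GSC2 and 2.05 without GSCLC4, and it fell below the filter and was not tested without GSCLC1 or without GSC1. Etv4, at -0.00, was 0.52 with means of log2 values, 0.11 with trimmed means, 0.16 with the later GSC1 run, 0.20 without GSCLC1, 0.31 without GSC1 and -0.32 without GSC2. The median rho between members was 0.011 in GSCLC1 and 0.039 in GSC2 given detected genes and depth, 0.038 in GSC2 by Pearson's r, 0.270 in GSCLC4 over the 7 members detected in 50% of cells of every line, and 0.133, 0.129 and 0.003 in GSC1 without the cell that stood apart, in the later run and in the earlier run. The cause of these shifts was not tested. Shares of cells differed by more than their interval in 19 of 36 values between the levels above 0 and at least 5 RPM, and in 3 of 36 after thinning. No paired analysis was possible because the lines share fewer than 2 numbers across the types. Depth limits detection below about 1 read in 2.00 M.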

Other observations

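Dusp4 and Etv1 were not detected in at least 50% of the cells of every line and were left out here. The per-cell mean rank of the other 7 members within their line was compared with 7883 other genes. The 5 genes that followed it most closely were Tanc1, Qtrtd1, Fam169a, Bmp6 and Ocln, with mean rho over the 4 lines of 0.46, 0.45, 0.44, 0.42 and 0.42. All but Ocln were at 0.21 or higher in every line. Ocln, which encodes the tight junction protein occludin, had 0.03 in GSCLC1, 0.63 in GSCLC4, 0.53 in GSC1 and 0.48 in GSC2. Bmp6, a secreted ligand of the BMP family, had 0.46 in GSCLC1, 0.25 in GSCLC4, 0.45 in GSC1 and 0.52 in GSC2. The middle of all genes lay at 0.056, and 95% were below 0.24. The part of the number of detected genes in these rhos was not tested.

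Il17rd, a membrane inhibitor of FGF signalling also known as Sef, was chosen after its values were seen. It followed the mean rank of these 7 members in every line, with rho of 0.37 in GSCLC1, 0.37 in GSCLC4, 0.36 in GSC1 and 0.43 in GSC2, and ranked 17th. Phlda1 ranked 6th with a mean rho of 0.41. Il17rd and Phlda1 were the highest of their lists, the other feedback inhibitors and the ERK-responsive genes. The lowest mean rhos in these lists were -0.04 for Errfi1 and -0.14 for Ier3, with the other genes between, so the lists as a whole did not follow the members. Fgf9, also chosen after its values were seen and the only FGF ligand gene of the list that was tested, ranked 15th with 0.47 in GSCLC1, 0.64 in GSCLC4, 0.05 in GSC1 and 0.37 in GSC2.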
